A study of Mus musculus with 14 samples.

Results

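The choroid plexus genes examined here were 10 of the 36118 genes in a count table from mouse hippocampus: Ttr, Kl, Folr1, Clic6, Otx2, Aqp1, Slc4a5, Prlr, Sostdc1 and Calml4. They were taken by symbol, as genes for which the epithelium of the choroid plexus is known, and all 10 passed the filter on low counts. RNA-seq was done on hippocampi collected at postnatal day 15 from C57BL/6N mice, with 1 library per mouse, in 4 wild-type mice in room air (WT-RA), 4 wild-type mice in hyperoxia (WT-O2), 3 gasdermin D knockouts in room air (KO-RA) and 3 knockouts in hyperoxia (KO-O2). Hyperoxia was 85% O2 and room air 21% O2, from postnatal day 1 to day 14. The knockout is global, carries a small CRISPR/Cas9 deletion in exon 5 of Gsdmd in both alleles, and was compared with WT littermates of heterozygote matings. Wild-type mice are numbered GSD398 to GSD408 and knockouts GSD489 to GSD496, so genotype and the time or batch that these numbers may stand for cannot be told apart. The record of mouse GSD408 names hyperoxia in its title but room air as its treatment, and the mouse was kept in WT-O2.

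The choroid plexus is a folded sheet of epithelium in the brain ventricles that secretes the cerebrospinal fluid and controls what passes into it from the blood. In the lateral ventricles it is attached along the edge of the hippocampus, next to the tissue dissected here. Its epithelial cells make transthyretin in very large amounts and carry water channels, bicarbonate transporters and folate receptors that few other cells of the brain hold. The transcription factor OTX2 is known to be needed for the formation and upkeep of this epithelium.

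Total estimated counts per library ranged from 27272270 to 28257496. Levels are given as CPM, a gene's count relative to the TMM-scaled library total, and are compared between libraries and not between genes. Gsdmd itself had 41 to 51 estimated counts in WT-RA, 51 to 63 in WT-O2, 22 to 42 in KO-RA and 36 to 40 in KO-O2, so transcripts of the targeted gene were still counted in the knockouts. These counts are per gene and not limited to the deleted part, so they do not check the genotype labels. By the study's methods, mice were genotyped by PCR of tail DNA. Marker genes of the hippocampal fields were present in every library, and all 14 of them passed the filter. Their summed level was 675 to 978 CPM in WT-RA, 913 to 1083 in WT-O2, 1252 to 1588 in KO-RA and 1327 to 1533 in KO-O2.

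Because OTX2 is the regulator among the 10 genes, its recognition letters TAATCC were looked for, on both strands, in the 250 bases before each transcription start listed by RefSeq for mouse build GRCm38.p6. Promoters were listed for 6 of the 10 genes, with 11 starts in all, some of whose windows overlap, namely Kl, Aqp1, Slc4a5, Calml4, Otx2 and Prlr. Of the 11 windows, 1 held the letters, before 1 of the 4 listed starts of Otx2 itself, against 6.25% of the 32851 windows of that length in the RefSeq table. The TATA box letters TATAAA, on either strand, were in 2 of the 11 windows, 1 of Otx2 and 1 of Slc4a5, against 12.4% of all windows. The CCAAT box letters CCAAT, on either strand, were in 2 of the 11 windows, 1 of Otx2 and 1 of Prlr, against 33.8% of all windows. No motif overlaps another in the windows shown. The window with the OTX2 letters and the one of Slc4a5 are shown 5′ to 3′ on the strand of the gene, because their genes are the regulator and the ion transporter of the group. Capitals mark the matched letters, which read GGATTA in Otx2, starting 211 bases before the start site, and TTTATA in Slc4a5, starting 127 bases before it.
Otx2 (chr14:48665110-48665359, minus strand): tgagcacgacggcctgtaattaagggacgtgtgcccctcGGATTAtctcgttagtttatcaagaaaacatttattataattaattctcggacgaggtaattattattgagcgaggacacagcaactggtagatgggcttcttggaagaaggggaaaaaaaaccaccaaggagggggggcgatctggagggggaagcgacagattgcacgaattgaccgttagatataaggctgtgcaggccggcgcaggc
Slc4a5 (chr6:83237125-83237374, plus strand): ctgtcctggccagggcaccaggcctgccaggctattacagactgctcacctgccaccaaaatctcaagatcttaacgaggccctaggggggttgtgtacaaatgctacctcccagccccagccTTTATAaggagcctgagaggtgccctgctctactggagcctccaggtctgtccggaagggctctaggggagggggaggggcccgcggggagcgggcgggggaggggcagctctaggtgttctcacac

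In 2 of the 14 libraries the choroid plexus genes were low, by a degree that differed between genes. These were KO-RA mouse GSD489 and KO-O2 mouse GSD494, which had the lowest level of their group for all 10 genes. In GSD489 the 10 genes stood at 0.858% (Ttr) to 22.2% (Prlr) of the mean of the other 2 KO-RA libraries, with a median of 3.14%. In GSD494 they stood at 3.71% (Ttr) to 61.2% (Prlr) of the mean of the other 2 KO-O2 libraries, with a median of 12.6%. Over all genes tested the same medians were 99.8% and 99.2%. In GSD489 all 10 genes were below 50%, as were 3.87% of all genes, and in GSD494 9 of the 10 were, as were 2.26% of all genes. In a bulk sample, fewer cells of a type and less RNA per cell cannot be told apart. The comparisons of the 10 genes that involve a KO group are therefore given with and without these 2 libraries.

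**Figure D1:**
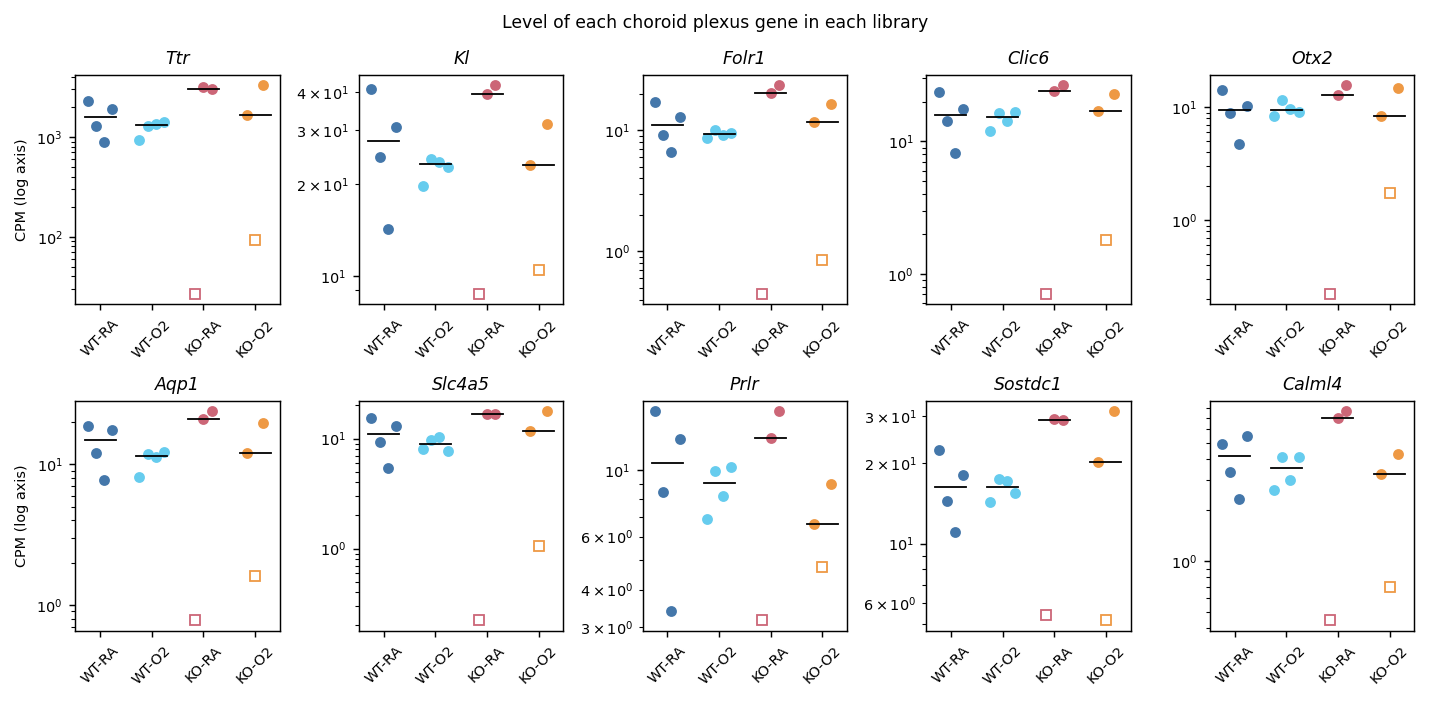
Level of each of the 10 genes in each library, in TMM-scaled CPM on a log axis with a scale of its own per panel, by group (1 point per mouse, 4 mice per WT group and 3 per KO group). Bars mark the group median and open squares mark mice GSD489 and GSD494, which hold the lowest level of their group in all 10 panels, for instance 26.7 and 92 CPM of Ttr.

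Ttr (ENSMUSG00000061808) encodes transthyretin, the carrier of thyroxine and of retinol-binding protein in the cerebrospinal fluid. For WT-RA it measured 2318 CPM in GSD398, 1295 in GSD399, 890 in GSD400 and 1899 in GSD401, and for WT-O2 929 in GSD404, 1295 in GSD405, 1359 in GSD406 and 1425 in GSD408. For KO-RA it measured 26.7 CPM in GSD489, 3177 in GSD490 and 3040 in GSD496, and for KO-O2 1648 in GSD491, 92 in GSD494 and 3317 in GSD495. The WT groups overlapped, and the KO groups held both the 3 highest and the 2 lowest libraries of the study. The level in GSD489 was 117-fold lower than the mean of the other 2 KO-RA libraries, and that in GSD494 was 27-fold lower than the mean of the other 2 KO-O2 libraries. The values rest on many counts, with 718 estimated counts in GSD489 and 90838 in GSD490.

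Aqp1, Slc4a5 and Clic6 belong to the transport machinery of the epithelium. Aqp1 encodes the water channel of its ventricular face, and its level in the same order of mice was 18.8, 12.1, 7.67 and 17.6 CPM in WT-RA, 8.06, 11.8, 11.2 and 12.2 in WT-O2, 0.78, 20.9 and 23.8 in KO-RA, and 12, 1.61 and 19.8 in KO-O2. Slc4a5 encodes a sodium bicarbonate cotransporter and measured 15.4, 9.3, 5.44 and 12.9 CPM in WT-RA, 8.02, 9.68, 10.4 and 7.68 in WT-O2, 0.223, 16.8 and 16.8 in KO-RA, and 11.7, 1.06 and 17.7 in KO-O2. For both genes the 2 higher KO-RA libraries lay above all 4 WT-RA libraries, and the lowest one far below them. The 0.223 CPM of Slc4a5 in GSD489 came from 6 estimated counts, whereas the other 2 KO-RA libraries held 481 and 473. Clic6 encodes a member of the chloride intracellular channel family and measured 23.5, 14.2, 8.2 and 17.7 CPM in WT-RA, 11.9, 16.3, 14.2 and 16.8 in WT-O2, 0.706, 24 and 26.7 in KO-RA, and 16.9, 1.8 and 23 in KO-O2.

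Folr1, Kl and Prlr encode proteins at the cell surface. Folr1 is the folate receptor through which folate reaches the cerebrospinal fluid, and it measured 17.2, 9.19, 6.61 and 12.9 CPM in WT-RA, 8.68, 10, 9.06 and 9.4 in WT-O2, 0.446, 20.3 and 23.6 in KO-RA, and 11.6, 0.844 and 16.5 in KO-O2. Kl encodes klotho, the co-receptor of fibroblast growth factor 23. It measured 40.9, 24.6, 14.3 and 30.6 CPM in WT-RA, 19.7, 24.1, 23.6 and 22.8 in WT-O2, 8.77, 39.2 and 42.1 in KO-RA, and 23.1, 10.5 and 31.3 in KO-O2. Prlr, the prolactin receptor, measured 15.7, 8.45, 3.39 and 12.7 CPM in WT-RA, 6.89, 9.93, 8.18 and 10.2 in WT-O2, 3.16, 12.8 and 15.7 in KO-RA, and 6.59, 4.77 and 9 in KO-O2. Folr1 varied like Ttr, whereas Kl and Prlr kept more of their level in the 2 low libraries. Kl stood at 21.6% and 38.7% of the other libraries of its group in GSD489 and GSD494, Prlr at 22.2% and 61.2%, and Folr1 at 2.03% and 6.01%. For Prlr, WT-RA mouse GSD400 was nearly as low as GSD489.

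Sostdc1, Otx2 and Calml4 are a secreted antagonist of BMP and Wnt signals, the homeodomain factor described above and a calmodulin-like protein. Sostdc1 measured 22.4, 14.4, 11 and 18 CPM in WT-RA, 14.3, 17.4, 17.1 and 15.4 in WT-O2, 5.42, 29.1 and 28.9 in KO-RA, and 20.2, 5.17 and 31.2 in KO-O2. Apart from the 2 low libraries, every KO library lay above every WT-O2 library for this gene. Otx2 measured 14.4, 8.84, 4.74 and 10.3 CPM in WT-RA, 8.35, 11.7, 9.63 and 9.15 in WT-O2, 0.223, 12.8 and 15.8 in KO-RA, and 8.41, 1.76 and 14.9 in KO-O2. Calml4 measured 4.95, 3.38, 2.33 and 5.52 CPM in WT-RA, 2.64, 4.12, 3.01 and 4.14 in WT-O2, 0.446, 7 and 7.68 in KO-RA, and 3.29, 0.697 and 4.28 in KO-O2. Sostdc1 kept 18.7% and 20.1% of the level of its group in GSD489 and GSD494, against 1.56% and 15.1% for Otx2 and 6.07% and 18.4% for Calml4.

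**Figure D2:**
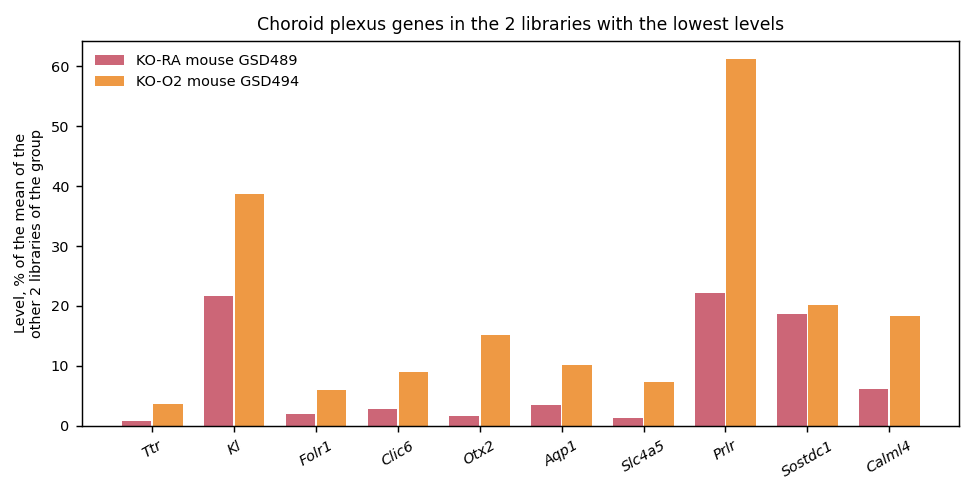
Level of each of the 10 genes in KO-RA mouse GSD489 and KO-O2 mouse GSD494, as a percentage of the mean of the other 2 libraries of the same group. The bars run from 0.858% to 22.2% in GSD489 and from 3.71% to 61.2% in GSD494, with Kl, Prlr and Sostdc1 the highest 3 in both.

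Within WT-RA the 10 genes also went up and down together from mouse to mouse, over a smaller range. There, 9 of the 10 genes had the order GSD398, GSD401, GSD399 and GSD400 from high to low, and Calml4 differed only in that GSD401 was above GSD398. The highest WT-RA library exceeded the lowest by 2.04-fold (Sostdc1) to 4.62-fold (Prlr). In WT-O2 this spread was 1.16-fold (Folr1) to 1.57-fold (Calml4), and GSD404 was lowest for 9 of the 10 genes and GSD408 for Slc4a5. The order was not shared in WT-O2, where the highest library was GSD408 for 5 genes, GSD405 for 4 and GSD406 for 1. The SD of log2 CPM within groups over the 8 WT libraries was 0.32 (Sostdc1) to 0.71 (Prlr), where the median gene had 0.15. Over the 6 KO libraries it was 0.94 (Prlr) to 3.41 (Ttr), where the median gene had 0.13, and Ttr had the fourth largest SD of all genes tested. That spread came with the 2 low libraries. Over the 12 libraries without GSD489 and GSD494 the SD was 0.32 (Sostdc1) to 0.63 (Prlr), where the median gene had 0.15. Ttr then had an SD of 0.48 and ranked 1466 from the largest.

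Since the libraries fall into 2 very low ones and 12 others, no pooled correlation with Ttr is given across all of them, and it was taken over the 12. On log2 CPM, Pearson's r with Ttr ran from 0.72 (Prlr) to 0.97 (Aqp1) and Spearman's rho from 0.69 (Prlr) to 0.97 (Sostdc1) for the other 9 genes. The largest permutation p of the 9 genes was that of Prlr, at 0.00663 for r and 0.017 for rho, and neither changed with Benjamini-Hochberg adjustment over the 9. As deviations from the group means, r ran from 0.86 (Calml4) to 0.97 (Aqp1). Without GSD490 and GSD495, the 2 of the 12 farthest from the median of Ttr, r ran from 0.83 (Otx2) to 0.98 (Aqp1) over 10 libraries. The 12 points of each gene share the library, its depth and its scaling.

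The genes outside the 10 that were most like them were chosen by Pearson's r, over the 14 libraries, with the mean standardized log2 CPM of the 10. The 10 highest were Kcnj13 (r = 0.994), Cdh3 (0.991), Abca4 (0.986), Kcne2 (0.982), Wfdc2 (0.981), Defb11 (0.979), 1500015O10Rik (0.978), Wdr86 (0.976), Enpp2 (0.976) and Mfrp (0.976). Over the 12 libraries without GSD489 and GSD494, r of these genes was 0.993 for Kcnj13 and 0.894 for Defb11, the highest and the lowest. The ranking depends on the 2 low libraries, as only 5 of the 10 genes (Kcnj13, Cdh3, Abca4, Wdr86 and Mfrp) were also among the 10 highest over the 12, where Cldn2, a claudin, came second with 0.976. Kcnj13 encodes a potassium channel and Enpp2 the enzyme autotaxin, which makes lysophosphatidic acid. Kcnj13 measured 3.43 to 12.5 CPM in the 12 libraries, 0.223 in GSD489 and 0.624 in GSD494, and Enpp2 measured 339 to 902 CPM in the 12, and 11.1% and 18.2% of the level of its group in GSD489 and GSD494. Of these 10 genes, 6 were in the list of 30 further genes of choroid plexus epithelium, of which 29 were matched. Over the 14 libraries an r over 0.9 was reached by 61 genes outside the 10, or 0.367% of all such genes. Among the 61 were 21 of these 29 listed genes. Over the 12 libraries without GSD489 and GSD494 an r over 0.9 was reached by 29 genes outside the 10, or 0.174%. Among them were 10 of the 29 listed genes. The list was chosen with earlier results of these data known, so these counts are a description.

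Whether hyperoxia changed the choroid plexus genes was asked in each genotype. In WT-O2 vs WT-RA, 0 of the 10 genes were called by edgeR's quasi-likelihood test, against 0.643% of the 16637 genes tested, 0 had an unadjusted p under 0.05, and DESeq2 called 0 of the 10. Called genes are those with a log2 fold change beyond 0.32 in size, an unadjusted p under 0.05 and a Benjamini-Hochberg adjusted p (q) under 0.1. The log2 fold changes (± SE) ran from -0.38 ± 0.67 for Aqp1 to 0.02 ± 0.67 for Otx2, with a median of -0.24 where all genes had a median of -0.01. The groups overlapped for all 10 genes, while 5.99% of all genes did not overlap. Ttr averaged 1600 ± 633 CPM in WT-RA and 1252 ± 222 in WT-O2 (SD, n = 4 each), a log2 fold change of -0.35 ± 0.93 (q = 0.925). The SEs here include the spread of the KO groups, since all 14 libraries shared 1 fit, and without GSD489 and GSD494 that of Ttr was 0.27, with q = 0.656.

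Between KO-O2 and KO-RA, none of the 10 genes was called, against 0.0120% of all genes, 0 had an unadjusted p under 0.05, and DESeq2 called 0 of the 10. All 10 log2 fold changes were negative, from -0.88 ± 0.68 for Calml4 (q = 0.997) to -0.16 for Sostdc1 (± 0.54) and Slc4a5 (± 0.84), with a median of -0.38. None of the 10 genes was free of overlap between the groups, against 11.8% of all genes. Without GSD489 and GSD494, which leaves 2 mice a group, the range was similar, from -0.96 ± 0.34 for Calml4 to -0.17 ± 0.26 for Sostdc1. Again 0 of the 10 were called by edgeR, as were 0% of all genes, although 1 of the 10 (Calml4) and 726 of all genes had an unadjusted p under 0.05 and DESeq2 called 8 genes, none of them among the 10. In those libraries 6 of the 10 genes (Kl, Folr1, Clic6, Aqp1, Prlr and Calml4) did not overlap between the groups, where 39.3% of all genes did not.

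The difference between the genotypes in their response was tested as an interaction. None of the 10 genes was called, and 0% of all genes were, with 0 of the 10 and 673 of all genes at an unadjusted p under 0.05 and 0 genes called by DESeq2. The interaction ran from -0.66 ± 0.89 for Calml4 to 0.10 ± 1.12 for Slc4a5 on the log2 scale. Without GSD489 and GSD494 it ran from -0.74 ± 0.41 (Calml4) to 0.07 ± 0.43 (Slc4a5), and again none of the 10 and 0% of all genes were called, with 676 of all genes at an unadjusted p under 0.05 and 2 called by DESeq2.

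Whether the knockout differed from WT was compared in each exposure and averaged over both. With all libraries, 0 of the 10 genes were called in KO-RA vs WT-RA, where 10.4% of all genes were, 0 in KO-O2 vs WT-O2, where 6.86% were, and 0 averaged over both exposures, where 12.0% were. None had an unadjusted p under 0.05 in any of the 3, and DESeq2 called none. The log2 fold changes ran from 0.01 ± 0.73 (Otx2) to 0.38 ± 1.00 (Ttr) in room air and from -0.38 ± 0.48 (Prlr) to 0.43 ± 1.00 (Ttr) in hyperoxia. None of the 10 genes was free of overlap in either exposure, where 19.6% of all genes were in room air and 19.0% in hyperoxia. Ttr averaged 2081 ± 1781 CPM in KO-RA (SD, n = 3), so that 1 mouse set most of its spread.

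The genotype values turned on the 2 low libraries. Without GSD489 and GSD494, 6 of the 10 genes were called averaged over both exposures, where 10.4% of all genes were, and all 6 were higher in KO. Ttr had a log2 fold change of 0.98 ± 0.23 (q = 0.0146), Folr1 of 0.77 ± 0.19 (q = 0.0205), Sostdc1 of 0.76 ± 0.16 (q = 0.00834), Slc4a5 of 0.69 ± 0.21 (q = 0.0512), Aqp1 of 0.62 ± 0.21 (q = 0.0726) and Clic6 of 0.56 ± 0.20 (q = 0.0965). The other 4 had 0.17 ± 0.29 (Prlr, q = 0.767) to 0.50 ± 0.20 (Calml4, q = 0.138) and were not called. In room air, 2 of the 10 were called, where 6.29% of all genes were, namely Sostdc1 (0.83 ± 0.22, q = 0.0567) and Folr1 (0.94 ± 0.27, q = 0.0693). In hyperoxia 0 were called by edgeR, where 4.95% of all genes were, although 4 had an unadjusted p under 0.05 and DESeq2 called 1, Sostdc1, where it called 6.29% of all genes. In room air DESeq2 called 3 of the 10, where it called 7.88% of all genes, and averaged over both exposures 5 of the 10, where it called 10.7%. Of the 10 genes, 7 did not overlap between KO-RA and WT-RA, where 27.3% of all genes did not, and 5 did not overlap between KO-O2 and WT-O2, where 28.8% did not. The 2 libraries were set aside because of their values of these very genes, both from the KO side, so these values describe the 12 remaining mice and are no test of genotype.

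**Figure D3:**
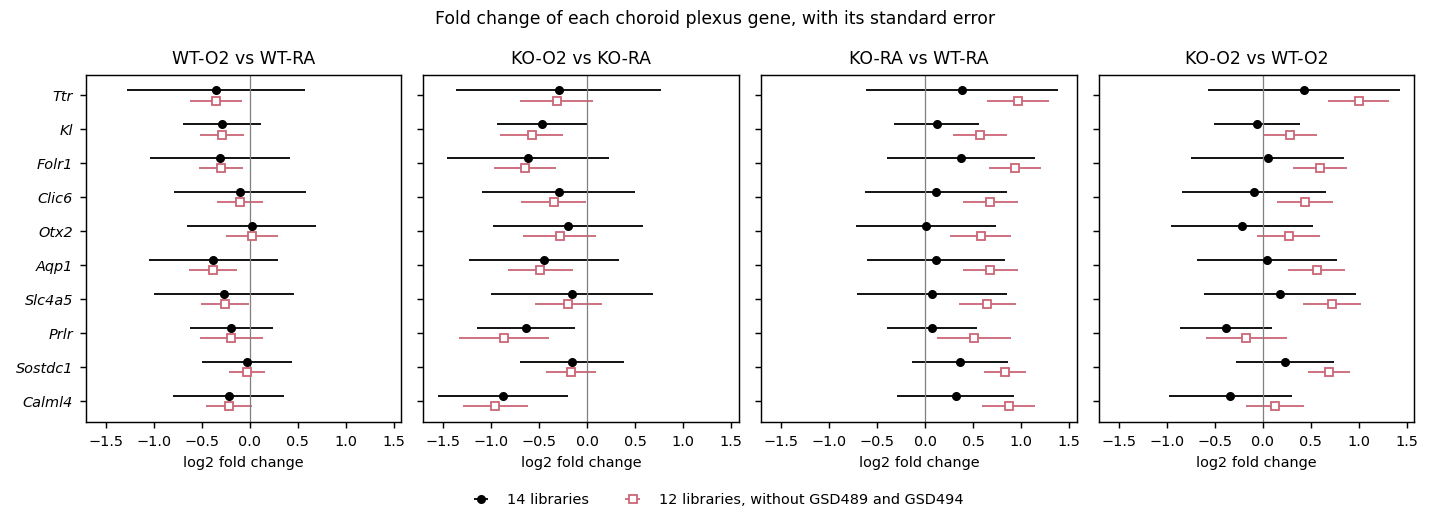
log2 fold change of each of the 10 genes in 4 comparisons (first group over second), with its SE as the horizontal line, over all 14 libraries (filled circles) and over 12 libraries without mice GSD489 and GSD494 (open squares). Ttr goes from 0.38 ± 1.00 to 0.97 ± 0.32 in KO-RA vs WT-RA and stays at -0.35 in WT-O2 vs WT-RA.

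The 10 genes did not keep the same proportions in all mice. Each gene was set against the mean log2 CPM of the other 9, over the 12 libraries without GSD489 and GSD494, and the values are given as a description without a test. The log2 ratio of Ttr was 6.99 ± 0.15 in the 8 WT libraries and 7.40 ± 0.21 in the 4 KO libraries (SD), and the ranges, 6.74 to 7.17 and 7.23 to 7.68, did not overlap. That of Kl was 0.52 ± 0.08 in WT and 0.34 ± 0.09 in KO, with ranges of 0.41 to 0.62 and 0.21 to 0.40. Relative to the other 9, Ttr was thus higher and Kl lower in these 4 KO mice than in WT, and both were the other way round in GSD489 and GSD494. The ratio of Prlr was -1.11 ± 0.28 in WT and -1.51 ± 0.25 in KO, with overlap, since WT-RA mouse GSD400 stood at -1.76. The ratios of Folr1, Clic6, Otx2, Aqp1, Slc4a5, Sostdc1 and Calml4 overlapped between the genotypes as well. Between the exposures of the WT mice, the ratio of Otx2 was higher by 0.26 in WT-O2 and that of Aqp1 lower (-0.21), and both overlapped narrowly. For GSD489 and GSD494, the ratio of Ttr was 4.77 and 5.45, that of Kl 2.99 and 1.97 and that of Prlr 1.35 and 0.70, outside the range of the 12 in each case.

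**Figure D4:**
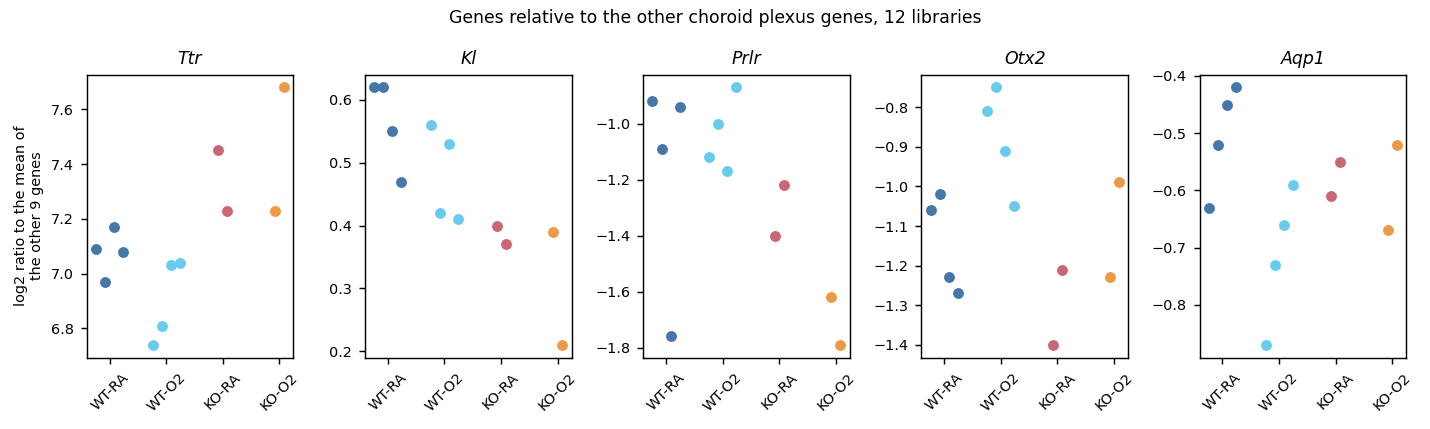
log2 ratio of Ttr, Kl, Prlr, Otx2 and Aqp1 to the mean log2 CPM of the other 9 genes in each of 12 libraries, by group, without mice GSD489 and GSD494 (axes differ between panels). Ttr lies at 7.23 to 7.68 in KO and at 6.74 to 7.17 in WT, and Kl at 0.21 to 0.40 in KO and at 0.41 to 0.62 in WT.

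Of the 29 further genes of choroid plexus epithelium, 22 were below 50% of the level of their group in both low libraries. The same held for 9 of the 10 genes and for 180 of the 16637 genes tested. The summed level of the 29 was 396 CPM in GSD489 and 399 in GSD494. It was 1477 and 1560 in the other KO-RA libraries and 1021 and 1247 in the other KO-O2 libraries. WT-RA held 738 to 1485 CPM and WT-O2 771 to 967. Of the 29, 2 were called higher in KO-RA vs WT-RA and averaged over both exposures, Slc29a4 and Car12, a share of the list below the 10.4% and 12.0% of all genes called there, and 0 in KO-O2 vs WT-O2 or between exposures. Slc29a4, a monoamine transporter, had a log2 fold change of 0.50 ± 0.08 in room air (q = 0.00177), and Car12, a carbonic anhydrase, of 0.77 ± 0.20 (q = 0.025). Both kept most of their level in the 2 low libraries, with 100% and 84.7% of their group in GSD489 and 89.1% and 68.4% in GSD494, where Prlr alone of the 10 genes kept more than 50%, in GSD494. Over the other 12 libraries, r with the mean of the 10 was 0.849 for Car12 and 0.354 for Slc29a4. Without the 2 libraries, 7 of the 29 were called in KO-RA vs WT-RA, against 6.29% of all genes, and 3 (Kcne2, Msx1 and Krt8) in KO-O2 vs WT-O2, against 4.95%, all higher in KO. Averaged over both exposures 15 of the 29 were called, against 10.4% of all genes and all higher in KO, among them Kcne2, a potassium channel subunit (1.02 ± 0.20, q = 0.00507), and Msx1, a homeobox factor (0.76 ± 0.12, q = 0.00203). Since the 2 libraries were set aside for low choroid plexus genes and 22 of the 29 are low in both, leaving them out raises the KO levels by construction, and these counts are a description and no test of genotype. Enpp2, Tmem72 and Slc31a1, which with Slc29a4 had the highest mean CPM of the list, not scaled for length, were not called in any comparison. Averaged over both exposures without the 2 libraries, Tmem72 (0.26 ± 0.07, q = 0.0309) and Slc31a1 (0.21 ± 0.06, q = 0.0396) missed only the fold threshold. Enpp2 (0.44 ± 0.20, q = 0.173) missed the q threshold there.

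Genes that work with the 10 but are made in other brain cells as well mostly stayed near the level of their group in the low libraries. The median was 94.8% in GSD489 and 85.9% in GSD494 for 16 genes of cerebrospinal fluid secretion, of which Kcnj13, also in the list above, was below 50% in both and Slc4a2, a bicarbonate exchanger, in GSD489 alone. For 12 genes of folate handling it was 94.8% and 90.9%, with none below 50%, and for 12 genes of prolactin and klotho signalling it was 91.2% and 93.1%, with none below 50%. The 16 genes of retinoid and thyroid hormone handling had medians of 90.2% and 92.5%, although some of them, such as Crabp2, Aldh1a2, Slco1a5 and Dio3, were below 50% in GSD489, and Slco1a5 was in GSD494 as well. Among 16 relatives of the 10, such as Otx1, Aqp4 and Folr2, the lowest was 79.7% in GSD489 and 64% in GSD494.

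In KO vs WT averaged over both exposures and with all libraries, 3 of the 12 prolactin and klotho genes, 2 of the 16 fluid secretion genes, 3 of the 16 retinoid and thyroid hormone genes, 1 of the 12 folate genes and 3 of the 16 relatives were called, where 12.0% of all genes were. The shares of the fluid secretion and folate lists are thus near that of all genes. Genes of these lists are made in other brain cells as well, and KO and WT also differed in markers of neighbouring brain tissue, given below. Whether the values that follow come from choroid plexus cells was not tested. Fgfr1, the receptor that klotho serves, was higher in KO (0.58 ± 0.05, q = 5.51e-06), while Stat5b and Cish, which act after the prolactin receptor, were lower (-0.41 ± 0.11, q = 0.0149, and -0.49 ± 0.14, q = 0.022). Kl and Prlr themselves were not called in this comparison (0.03 ± 0.31, q = 0.961, and -0.15 ± 0.33, q = 0.812). Slc12a2, the sodium, potassium and chloride cotransporter of fluid secretion, was lower (-0.49 ± 0.14, q = 0.0266), and Slc4a7, a bicarbonate cotransporter, higher (0.33 ± 0.10, q = 0.0269). Of the retinoid list, Crabp1 was lower (-1.06 ± 0.16, q = 3.28e-04), and Stra6, a receptor for retinol uptake, was higher (0.34 ± 0.10, q = 0.0268). Of the folate list, Mthfd1l, a mitochondrial enzyme of folate metabolism, was lower (-0.33 ± 0.09, q = 0.0161). Of the relatives, Aqp11 (0.35 ± 0.07, q = 0.00342) and Slc4a7 were higher and Clic4 lower (-0.56 ± 0.13, q = 0.00932). Without GSD489 and GSD494 the counts were 1 of 13 prolactin and klotho genes, 1 of 16 fluid secretion genes (Kcnj13), 4 of 16 retinoid and thyroid hormone genes, 0 of 12 folate genes and 1 of 17 relatives, where 10.4% of all genes were called. In those libraries 6 of the genes named above had the same direction but were not called. Stat5b (-0.29 ± 0.11, q = 0.0988), Mthfd1l (-0.28 ± 0.09, q = 0.064) and Aqp11 (0.31 ± 0.07, q = 0.0176) missed the fold alone. Cish (-0.32 ± 0.13, q = 0.125) and Slc12a2 (-0.32 ± 0.14, q = 0.151) missed the q threshold. Slc4a7 (0.22 ± 0.10, q = 0.171) missed both the q threshold and the fold. Between WT-O2 and WT-RA, where 0.643% of all genes were called, 1 gene of these lists was, Clic5, a relative of Clic6, which was lower (-0.65 ± 0.12, q = 0.0574).

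Markers of other tissue at the edge of the hippocampus were read beside the 10 genes, though they need not be separate from choroid plexus. Mia, of the ependymal list, had an r of 0.951 with the mean of the 10 over the 12 libraries without GSD489 and GSD494. Over all 14 libraries its r was 0.653. The summed level of 15 markers of ependymal cells, the ciliated lining of the ventricles, was 44.1 CPM in GSD489 and 49.7 in GSD494. Both lay below the 63.4 to 97.6 CPM of the other 12 libraries. Of the 15, 7 were below 50% of their group in GSD489, 2 in GSD494 and 2 in both. Of all genes, 3.87% were below 50% in GSD489 and 2.26% in GSD494, and 180 of the 16637 genes tested were in both. For 15 markers of meninges and fibroblasts the summed level was 386 CPM in GSD489 and 402 in GSD494. This was below the 535 to 651 of WT-O2 and the 601 to 801 of the other KO libraries. It was also below 3 of the 4 WT-RA libraries (356 in GSD400 and 484 to 582 in the others). Of these 15 markers, 7 were below 50% in GSD489, 3 in GSD494 and 3 in both. Of 7 genes of fenestrated endothelium, the kind of capillary found in the choroid plexus, 1 was below 50% in both. Of 8 blood genes none was below 50% in both, though 3 were in GSD494. Without the 2 low libraries, 8 of the 15 meningeal and fibroblast markers were called averaged over both exposures, against 10.4% of all genes and 3 of the 15 with all libraries, all higher in KO, as were 6 of the 10 choroid plexus genes. The summed level of these markers was lower in the 2 mice than in the other KO libraries. Leaving the 2 mice out therefore raises the KO level by construction, and this count is no test of genotype either. The KO groups also differed from WT in markers of neighbouring brain tissue. Averaged over both exposures with all libraries, 12 of 13 striatal markers, 10 of 14 thalamic markers and 8 of 13 markers of the medial habenula were called lower in KO, and 10 of 14 hippocampal markers were called higher, where 12.0% of all genes were called. Without the 2 low libraries these counts were 12, 9, 6 and 10. The lists were chosen with earlier results of these data known, so these counts are a description and no test. In GSD489 the 14 hippocampal markers stood at 101% to 151% of the other 2 KO-RA libraries, with a median of 128%. In GSD494 they stood at 77% to 114% of the other 2 KO-O2 libraries, with a median of 101%. Summed striatal levels were 510 to 1055 CPM in WT and 254 to 355 in KO, in the 2 low libraries as in the other 4. The genotypes overlapped in summed thalamic levels (222 to 1211 CPM in WT and 254 to 297 in KO). They also overlapped in summed levels of the medial habenula (259 to 450 and 285 to 338 CPM). The part of these differences in the values of the 10 genes was not tested.

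**Figure D5:**
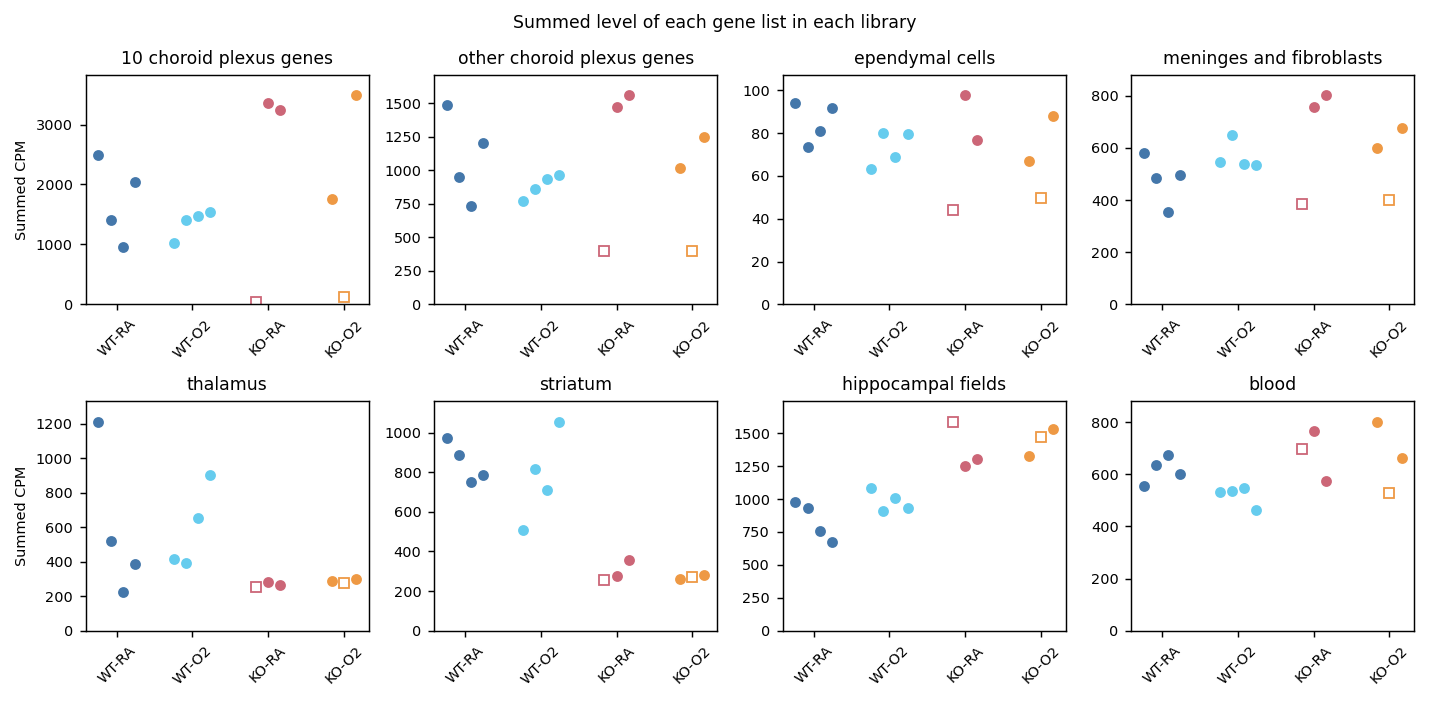
Summed CPM of 8 gene lists in each library, by group, on linear axes that start at 0 with a scale of its own per panel (open squares are mice GSD489 and GSD494). The 2 mice stand apart for the 10 genes, the further choroid plexus genes and ependymal markers, whereas for striatal markers all 6 KO libraries lie at 254 to 355 CPM and the WT libraries at 510 to 1055 CPM.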

How the data were processed

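The authors deposited 1 table of estimated counts per gene for hippocampal polyA RNA of 14 mice, which by the study's methods came from Kallisto against GRCm39 and tximport. The versions of these programs and the scaling of counts are not given in the sources used here. Symbols were matched by Ensembl identifier for 35825 of 36118 genes. Counts were rounded, filtered with filterByExpr to 16637 genes, scaled by TMM and fitted with edgeR 4.0.16 (R 4.3.3), with 1 coefficient per group. The quasi-likelihood F-test was two-sided, with Benjamini-Hochberg adjustment over all genes tested, and the SE is the log2 fold change divided by the root of F. log2 CPM used a prior count of 2. The test was tried on simulated data.

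Libraries were grouped by their titles, and the fits set each difference against the spread between mice within groups, shared over all groups. The labels do not name litters, so litter was not modelled. Depth, from 27272270 to 28257496 counts a library, was even and limits only genes with few counts. Correlations used 100000 permutations, two-sided. The genes named are the 10, called genes of the other lists (at most 4 per list and comparison, smallest p first), up to 6 further choroid plexus genes with the highest mean CPM, and the 10 genes most like the group. The gene groups and lists were chosen with earlier results of these data known. Alternatives were DESeq2 1.42.0, other scalings, filters and thresholds, the compared groups alone, mouse GSD408 as WT-RA and each mouse left out. The fits without GSD489 and GSD494 were added after seeing the data. Promoter sequence is from RefSeq (GRCm38.p6), not the build of the counts. The values of 1 listed gene are not reported here.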

Additional observations from a re-analysis of the deposited data

Results flagged for a closer look

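Among 48 groups of levels examined in the WT mice for a library far from the other 3 of its group, 2 stood out, where chance alone gives about 1 in 20. The lowest summed level of the cerebrospinal fluid secretion genes in WT-RA was 3211 CPM in mouse GSD399, against 3280 to 3290 CPM in the other 3. The highest summed level of the meninges and fibroblast markers in WT-O2 was 651 CPM in mouse GSD405, against 535 to 544 CPM in the other 3. None of the 10 choroid plexus genes stood out in this way in WT mice, and the KO groups, with 3 mice each, were not examined by this rule.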

How the results depend on the processing

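None of the 10 choroid plexus genes was called in any comparison with all libraries, with DESeq2, other scalings, filters or thresholds, with mouse GSD408 as WT-RA or with any 1 mouse left out (lowest q 0.267 over 1228 values). Only the settings added after seeing the data changed this. Without GSD489 and GSD494, edgeR called 2 of the 10 in KO-RA vs WT-RA (6.29% of all genes) and 6 averaged over both exposures (10.4%), and DESeq2 called 3 (7.88%), 5 (10.7%) and, in KO-O2 vs WT-O2, 1 (6.29%). The signs were less stable. With each mouse left out in turn, 32 of 140 values changed sign averaged over both exposures, 31 in the interaction, 22 in KO-RA vs WT-RA, 17 in KO-O2 vs KO-RA, 12 in KO-O2 vs WT-O2 and 8 in WT-O2 vs WT-RA. Counts over all genes moved more. In WT-O2 vs WT-RA 107 genes were called, 310 with DESeq2 (287 without GSD489 and GSD494), 20 with those groups alone, 6 with GSD408 as WT-RA, 46 at a fold change of 1.5, 22 at q under 0.05, and 13 (without GSD405) to 272 (without GSD398) with 1 mouse left out. In KO-O2 vs KO-RA 2 were called, 13 with DESeq2, 6 without a filter, 4 with those groups alone, 0 with GSD408 as WT-RA, 0 without GSD489 and GSD494 (8 with DESeq2) and 1 to 4 with 1 mouse left out. In the interaction 0 were called, and 2 by DESeq2 without GSD489 and GSD494. At a fold change of 1.5, 942 of 1738 remained in KO-RA vs WT-RA, 607 of 1142 in KO-O2 vs WT-O2 and 1011 of 2004 averaged over both exposures. KO-RA vs WT-RA gave 1059 without GSD489 and GSD494 and 1076 (without GSD489) to 1929 with 1 mouse left out, and KO-O2 vs WT-O2 gave 675 (without GSD495) to 1335. The cause was not tested. No paired analysis was possible because each library is a different mouse and the labels name no pairs or litters. With at least 10 counts asked of every library, Otx2 and Slc4a5 gave no value, since GSD489 held 6 counts of each.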
